A study of Drosophila melanogaster with 2 samples.

Results

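The Notch pathway genes examined here are 10 core genes of the Drosophila pathway, the receptor gene N, the ligand genes Dl and Ser, the ligand-processing genes neur and mib1, the receptor-processing genes fng and kuz, and the nuclear genes Su(H), H and mam. They were taken by name from the Ensembl BDGP6 annotation, in which they make 10 of 18277 genes and 10 of 13968 protein-coding genes on the main chromosome arms. Dl is listed there as Delta and was matched through its synonym, not through the dorsal gene dl. A peak was assigned to a gene where its summit, the base of highest signal, lay inside the gene or within 2 kb of either end. The rule itself uses no measured value, although the genes were proposed with earlier results of these data known.

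The data come from chromatin immunoprecipitation with sequencing (ChIP-seq) of a GFP-tagged protein, CG7372-eGFP, from a fly strain that carries the fusion as an insertion. CG7372 is the gene annotated as Phs. Whole embryos aged 0 to 24 h were used in 2 biological replicates of 1 group, so there was no second condition and no test between groups, and no control library was analysed here. Each list of peaks was deposited in a ranked form, which also holds peaks that do not repeat, and in a thresholded form cut at an irreproducible discovery rate (IDR) of 0.0100. Since every tissue and stage of the embryo was pooled, a summit does not tell in which cells the protein was found. With no control library analysed here, a gathering of fragments at open chromatin cannot be told apart from binding. The deposited lists also rest on unnamed inputs, and whether a control is among them is unknown. Depth is unknown, as the files hold no read counts.

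Notch signalling passes between touching cells. The ligands Delta and Serrate on one cell bind the receptor Notch on its neighbour, and the ubiquitin ligases Neuralized and Mind bomb 1 drive the uptake of the ligand that pulls on the receptor. The glycosyltransferase Fringe sets which ligand the receptor answers to, the metalloprotease Kuzbanian makes the outer cut, and gamma-secretase makes the inner one. The freed intracellular domain joins Su(H) and the coactivator Mastermind on DNA, while Hairless turns Su(H) into a repressor in the absence of signal. In the fly embryo the pathway is best known for limiting how many ectodermal cells become neuroblasts.

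The conservative thresholded list, built from both replicates, placed 13 summits at 5 of the 10 genes, where 33.0% of all protein-coding genes held one. Mam held 7, neur and mib1 held 2 each, and N and Su(H) held 1 each. Both ligand genes, the corepressor gene H, fng and kuz held none. The 3 genes with the strongest peaks, mam, neur and N, had them inside introns, with signals of 319.5, 205 and 153. Summits near the genes' own transcription start sites (TSS) were found at Su(H), neur, mib1 and mam (16.7% of all protein-coding genes had one within 500 bp), and each of these had a signal below the median of 88.3 over the list. Signal is the authors' own value per peak, of unstated scale, and is compared here within 1 list only.

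The sequences below lie 50 bp to either side of the summit of the strongest conservative peak of N, Su(H) and neur, and of the weaker peaks of neur and mib1, shown because they lie at those genes' own TSS. They were read from the RefSeq Release 6 sequence (dm6) on the plus strand, and the capitals mark the 21 bases centred on the summit. None of the 5 stretches held any of the 4 words searched below.
N, intron peak, chrX:3162511-3162611: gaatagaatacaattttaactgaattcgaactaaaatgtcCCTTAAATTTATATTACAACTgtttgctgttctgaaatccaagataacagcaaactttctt
Su(H), promoter peak, chr2L:15039311-15039411: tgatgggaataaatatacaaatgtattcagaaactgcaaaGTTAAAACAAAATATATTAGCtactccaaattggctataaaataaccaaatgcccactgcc
neur, intron peak, chr3R:9031976-9032076: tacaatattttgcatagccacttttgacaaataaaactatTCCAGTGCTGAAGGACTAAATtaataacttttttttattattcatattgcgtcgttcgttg
neur, peak at the inner TSS, chr3R:9033949-9034049: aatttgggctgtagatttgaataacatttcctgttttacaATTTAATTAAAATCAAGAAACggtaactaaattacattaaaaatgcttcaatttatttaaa
mib1, promoter peak, chr3L:16011815-16011915: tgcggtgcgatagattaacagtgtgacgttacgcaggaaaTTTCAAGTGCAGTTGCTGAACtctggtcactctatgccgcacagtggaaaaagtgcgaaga

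All of these windows but that of mib1 were rich in A and T. Of the bases, 72.3% were A or T at N, 69.3% at Su(H), 71.3% and 78.2% at neur, and 52.5% at the promoter peak of mib1. Over all 13 member summits the median was 71.3% (range 50.5 to 79.2%), against a median of 63.4% (29.7 to 90.1%) over all 4593 conservative peaks on the arms. The first 4 sequences above therefore sit above the list's median and the mib1 promoter sequence below it. No test was made of this difference.

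**Figure D1:**
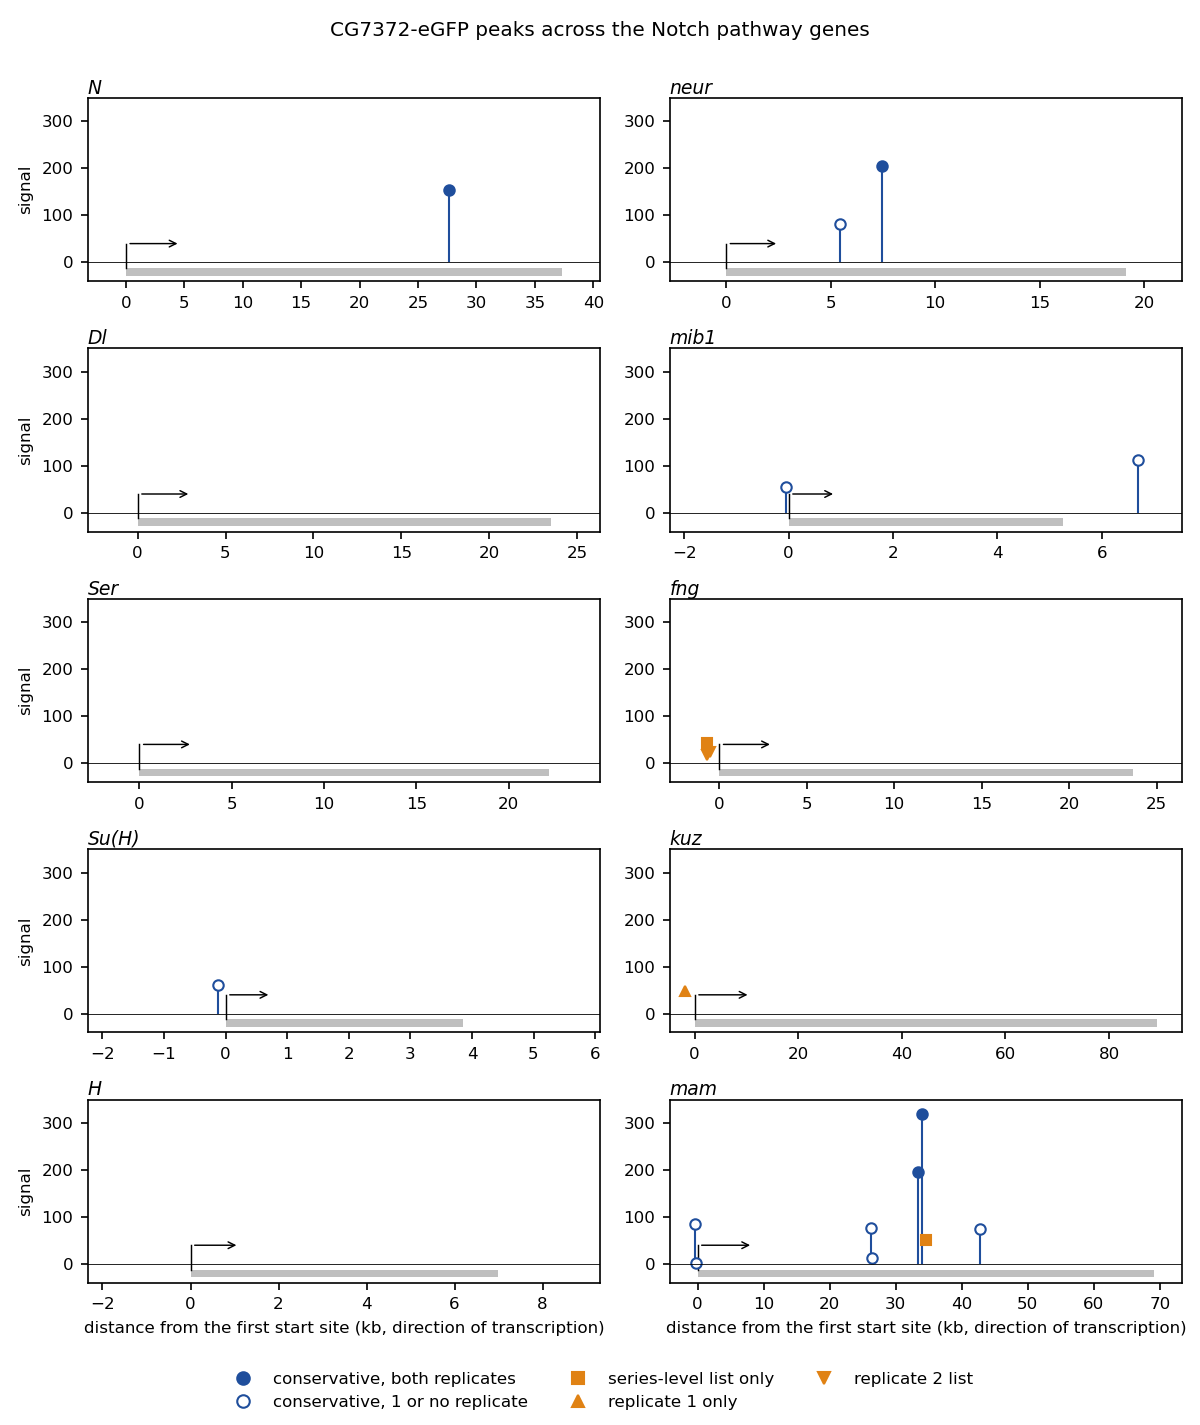
Thresholded peaks along each of the 10 genes. The x axis gives the distance in kb from the gene's first TSS in the direction of transcription. The y axis gives the authors' signal in the list the peak comes from, and grey bars mark the gene. Filled circles are conservative peaks that overlap a thresholded peak of both replicates. Open circles overlap one of 1 or no replicate, though they can have ranked partners. Orange symbols are peaks found only outside the conservative list. The peaks of N, neur and mam with the highest signal stand inside the genes, and the panels of Dl, Ser and H are empty.

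The receptor gene N (X:3134870-3172221, plus strand, 37.4 kb) held 1 thresholded peak in each list. Its summit in the conservative list lay at X:3162561, in intron 5 of 8, an intron of 4245 bp, 27691 bp downstream of the N TSS. The peak had a signal of 153 and ranked 969 of 4594. In the replicate lists its signal was 73.4 (rank 1202 of 2805) in replicate 1 and 75.3 (rank 887 of 3081) in replicate 2, so both replicates placed it in the stronger part of their lists. The nearest TSS of any gene, that of CG18508, was 10579 bp away beyond the end of N.

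The N promoter just missed the threshold. A peak that reached its summit 289 bp before the N TSS, at X:3134581, had a signal of 62.4 in the conservative ranked list and ranked 3975 of 89959. Its score was 828, where the lowest score in the thresholded list was 830, and its −log10 IDR was 1.996. A ranked peak 359 bp upstream of the TSS in replicate 1 had a signal of 35.9 and a −log10 IDR of 0.522. In replicate 2 the strongest ranked-only peak of N was not at the promoter but past the gene end, at X:3173355, with a signal of 24.5.

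The ligand genes Dl (3R:19302731-19326217, minus strand, 23.5 kb) and Ser (3R:27172090-27194267, minus strand, 22.2 kb) held no summit in any of the 4 thresholded lists. They were not free of ranked peaks. Dl held 18 in the conservative ranked list, 27 in the series-level ranked list, 9 in replicate 1 and 13 in replicate 2, and Ser held 17, 20, 6 and 13 in the same lists. The strongest of Dl in the conservative ranked list lay in an intron, 10323 bp downstream of its TSS, with a signal of 35.7, rank 11613 and a −log10 IDR of 0.705. That of Ser lay in an intron 2618 bp from its nearest TSS, with a signal of 37.6, rank 10184 and a −log10 IDR of 0.559. Both values are far below the −log10 IDR of 1.996 at the N promoter. The conservative summit nearest to Dl was 76999 bp from the gene and lay 63 bp from the TSS of Ino80 (signal 342). The one nearest to Ser was 18234 bp away and had a signal of 9.25.

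The neur gene (3R:9020348-9039471, minus strand, 19.1 kb), which encodes the ubiquitin ligase Neuralized, held 2 conservative peaks, both in intron 1 of 2, an intron of 15309 bp. The stronger had its summit at 3R:9032026, 1705 bp downstream of the inner of neur's 2 TSS, with a signal of 205 and rank 575. It was narrow, 113 bp against a median width of 340 bp in the list, and its signal was 102 (rank 682) in replicate 1 and 99.8 (rank 539) in replicate 2. The other summit, at 3R:9033999, lay 268 bp upstream of the same inner TSS, with a signal of 82.4 and rank 2540. That peak was in neither replicate's thresholded list. Its ranked partners had signals of 50.6 (rank 2220) in replicate 1 and 29.2 (rank 4287) in replicate 2.

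The other ligand-directed ubiquitin ligase gene, mib1 (3L:16006552-16011812, minus strand, 5.26 kb), also held 2 conservative peaks, and neither was shared by both thresholded replicate lists. The promoter peak (summit 3L:16011865, 53 bp before the mib1 TSS) had a signal of 54.3, rank 4112 and a score of 951. It had no partner in the ranked list of replicate 1 and a ranked partner of signal 27.4 (rank 4784) in replicate 2. Its −log10 IDR was 2.29 in the conservative ranked list and 0.144 in the series-level ranked list, so it was absent from the series-level thresholded list. The other summit lay past the end of mib1. With a signal of 112 (rank 1601) it was the stronger of the pair, but it lay within 500 bp of the TSS of both mRpS31, a mitochondrial ribosomal protein gene, and hzg. It was thresholded in replicate 1 (signal 72.5, rank 1225) and only ranked in replicate 2 (33.5, rank 3417).

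The gene for Fringe, fng (3L:20925891-20949512, minus strand, 23.6 kb), had no conservative peak but had thresholded peaks in other lists, all upstream of its promoter. The series-level list held one whose summit, 3L:20950222, stood 710 bp before the fng TSS and 561 bp from the TSS of lncRNA:CR45243, with a signal of 43.3 and rank 4492 of 4782. The same peak had a −log10 IDR of 2.37 in the series-level ranked list and 1.18 in the conservative one. Replicate 2 held 2 overlapping peaks there, 517 and 717 bp upstream, with signals of 23.8 and 17.3 and ranks of 3014 and 3026 of 3081. Replicate 1 held none above the threshold and a ranked partner of signal 26.1 (rank 7460). The region was therefore near the bottom of each thresholded list that held it.

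Kuz, the metalloprotease gene (2L:13550139-13639411, plus strand), was the longest of the 10 at 89.3 kb and had no thresholded peak within its span in any list. Replicate 1 alone held a thresholded peak within 2 kb of it. Its summit, 2L:13548341, stood 1798 bp before the kuz TSS. It also lay inside the neighbouring gene B4, 570 bp from the B4 TSS. Its signal was 47.1 (rank 2288 of 2805) in replicate 1, and a ranked partner in replicate 2 had a signal of 14.0 (rank 21856 of 58006). Inside kuz the conservative ranked list held peaks up to a signal of 41.0 (rank 8279), with a −log10 IDR of 0.308. The nearest conservative summit lay 35287 bp outside the gene.

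Su(H), the gene of the DNA-binding protein of the pathway (2L:15039488-15043334, plus strand, 3.85 kb), held 1 conservative peak at its promoter. The summit, at 2L:15039361, lay 127 bp upstream of the Su(H) TSS, and the divergent gene CIAPIN1 starts 500 bp from the same summit. Its signal was 60.4 and its rank 3802. Replicate 2 held it above the threshold (signal 36.0, rank 2723) and replicate 1 only in the ranked list (30.1, rank 5346). 

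H, the gene of the Su(H) corepressor Hairless (3R:20621938-20628915, plus strand, 6.98 kb), was the only one of the 10 without a summit in the conservative ranked list, where 850 of 13968 protein-coding genes (6.09%) had none. The series-level ranked list and that of replicate 2 held none either. Replicate 1 held 2 ranked summits, the stronger at 653 bp upstream of the H TSS with a signal of 15.1 and rank 28568 of 54414. The nearest conservative summit was 5298 bp away and lay 519 bp from the TSS of Pi3K92E, with a signal of 90.1.

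Mam, the gene of the coactivator Mastermind, spans 69.2 kb of the plus strand from 13991203 to 14060356 on 2R and held 7 of the 13 conservative summits. Of these, 5 lay in intron 3 of 6, an intron of 27528 bp. The strongest had its summit at 14025131, 6532 bp upstream of the last of mam's 3 TSS, with a signal of 319.5 and rank 246. It was thresholded in both replicates, with a signal of 189 (rank 217) in replicate 1 and 126 (rank 325) in replicate 2. The second lay 554 bp away at 14024577, with a signal of 195 (rank 629), a width of 112 bp, and replicate signals of 96.0 (rank 756) and 94.0 (rank 604). The nearest TSS to both was that of CG18371, a gene nested in mam, at 3489 and 4043 bp.

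The other mam summits were weaker and less repeated. The summit at 13990785, 418 bp upstream of the first mam TSS, had a signal of 84.5 (rank 2445) but lay 78 bp from the TSS of the divergent gene RN-tre. It was thresholded in replicate 2 (signal 51.0) and ranked in replicate 1 (44.3). The summit at 14017482, 8283 bp downstream of the middle TSS, had a signal of 76.5 and was thresholded in replicate 1 only. The last 3 had signals of 2.29 to 75.1. Of these, the summits at 14017681 and 13990986, with signals of 12.5 and 2.29, lay 199 and 201 bp from a stronger summit in an overlapping peak, so the 13 member summits made 11 separate regions. Over the whole list 238 peaks had a signal under 20, and 233 of them overlapped a peak of higher signal. The series-level list added a peak at 14025765 in the same intron (signal 50.7, rank 4386).

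**Figure D2:**
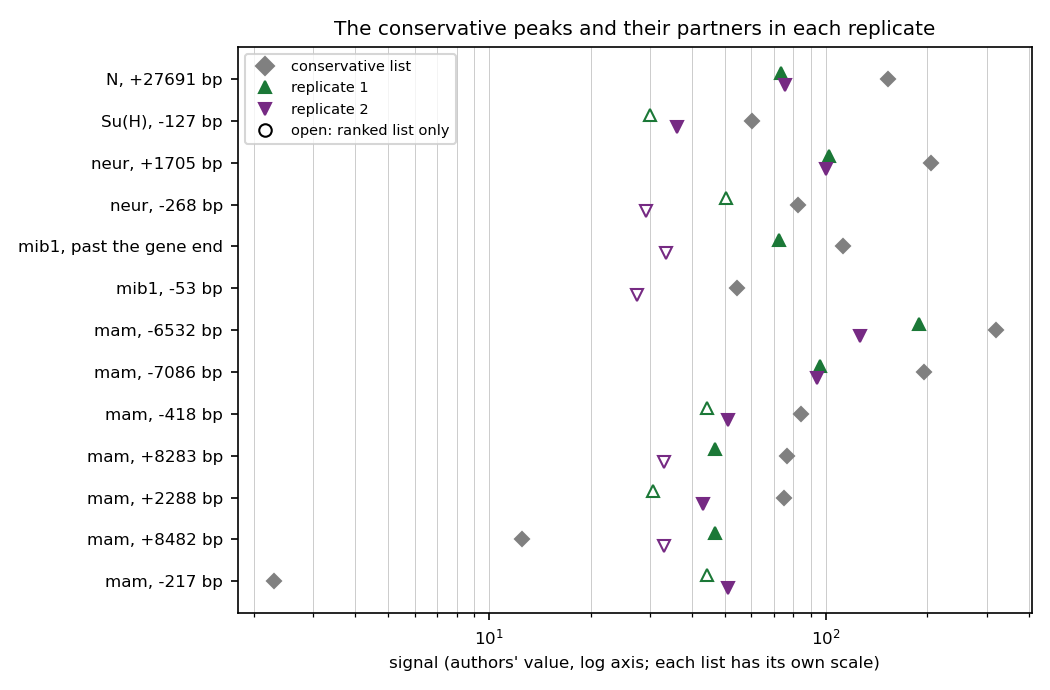
Signals of the 13 conservative peaks and of their partners in each replicate. The x axis is the authors' signal on a log axis, each list on its own scale, each row is a peak named by its gene and its distance in bp to the nearest TSS of that gene (or its place past the gene end), and open triangles are partners found in a ranked list only. Both triangles are filled for N, the stronger peak of neur and the 2 strongest of mam, and the last 2 rows share their replicate partners with the overlapping mam peaks above them.

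The density of summits over the 10 genes was near that of other genes, with a wide interval. In the conservative list 5 of 10 (50%, 95% Wilson interval 23.7 to 76.3%) held a summit inside or within 2 kb, against 4609 of 13968 protein-coding genes (33.0%). Long genes offer more room, and 6 of the 10 span at least 20 kb. Of those 6, only N and mam held a summit (33.3%, 9.68 to 70.0%), against 696 of 1020 protein-coding genes of that length (68.2%). Of the 4 shorter ones, Su(H), neur and mib1 did (75.0%, 30.1 to 95.4%), against 3913 of 12948 (30.2%). Neur, at 19.1 kb, lies just under the cut of 20 kb, and no other cut was tried, so both shares depend on its placement. Per 100 kb of gene with its margins the members held 3.82 summits (exact 95% Poisson interval 2.03 to 6.53), or 2.25 (0.824 to 4.89) without mam, against 3.94 over protein-coding genes and 3.13 over those of at least 20 kb. The intervals cover counting error over these genes only. Each of these intervals for the members holds the value for the protein-coding genes it is set beside.

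Summits at the genes' own start sites had signals below the list median of 88.3, and none was thresholded in both replicates. The strongest of them, at mam (84.5) and neur (82.4), were near that median. Within 500 bp of an own TSS, 4 of 10 genes (40%, 16.8 to 68.7%), namely Su(H), neur, mib1 and mam, held a conservative summit, against 2330 of 13968 (16.7%), a share just under the lower end of that interval. The count was 2, Su(H) and mam, in the thresholded list of replicate 2, against 13.0% of protein-coding genes in that list, and 0 (up to 27.8%) in that of replicate 1, against 11.8%. Among conservative peaks within 500 bp of any TSS, 0 of the 6 at the members (up to 39.0%) overlapped a thresholded peak of both replicates, against 1078 of 1944 over the list (55.5%), and 2 of 6 (33.3%, 9.68 to 70.0%) overlapped one of neither, against 20.8%. The 6 include an overlapping pair at mam, so they are not independent. At Su(H) and mam the TSS of a divergent neighbour lay within 500 bp of the same summit, so these genes and their neighbours cannot be told apart. By replicate list, 5 of the 10 genes held a summit in replicate 1 and 5 in replicate 2, against 23.9% and 26.3% of protein-coding genes. They were not the same genes. N, neur and mam held one in both, mib1 and kuz in replicate 1 only, and Su(H) and fng in replicate 2 only. The mib1 summit of replicate 1 is the one near mRpS31 and hzg, and the kuz summit lies inside B4.

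**Figure D3:**
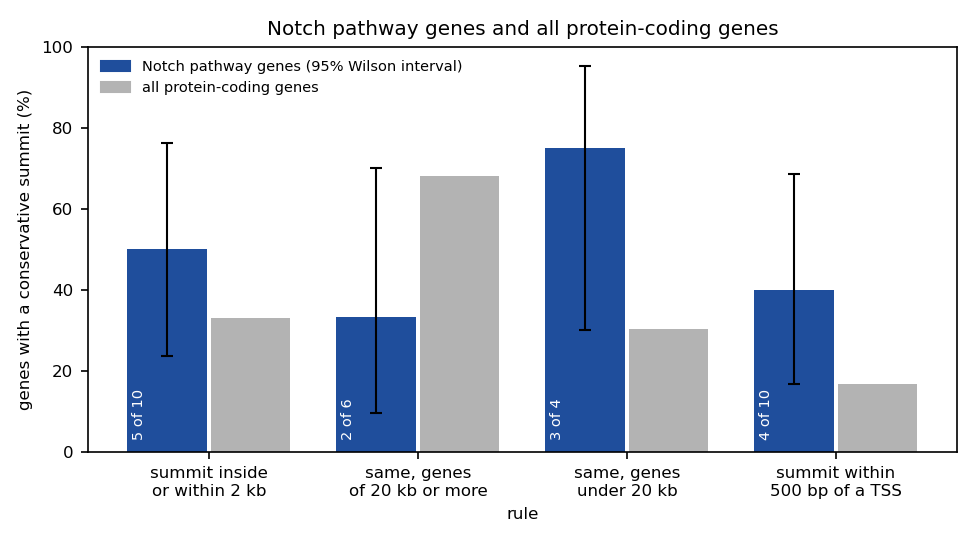
Share of the 10 Notch pathway genes (blue) and of all protein-coding genes (grey) with a conservative summit, in percent, under 4 rules. Error bars are 95% Wilson intervals for the Notch pathway genes, and the printed counts give members with a summit out of members under the rule. The blue bar is the lower of the pair among genes of 20 kb or more (33.3% against 68.2%) and the higher under the other 3 rules.

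The distribution of signal over the 13 member summits was close to that of the list, with a lowest, median and highest signal of 2.29, 82.4 and 319.5, against 2.05, 88.3 and 1992 over all 4593 peaks on the arms. By rank, 4 fell in the strongest 25% of the list, 1 in the second, 4 in the third and 4 in the weakest. The 6 within 500 bp of any TSS had a median signal of 71.4 and a highest of 112, against a median of 101 over the 1944 such peaks of the list. The 7 farther from a TSS had a median of 153, against 82.1 over the other 2649 peaks. All 4 member summits in the strongest 25% belong to this second class, and they are the intronic peaks of N, neur and mam. These 7 summits lie in only 3 genes, and 5 of them in 1 intron of mam, so they are not independent of each other.

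Of the 13 summits, 8 lay in introns, 4 upstream and 1 downstream of the gene, and none in an exon of the gene. The share within 500 bp of any TSS was 6 of 13 (46.2%, 23.2 to 70.9%), against 1944 of 4593 (42.3%) over the list. Peaks that overlapped a thresholded peak of both replicates made up 4 of 13 (30.8%, 12.7 to 57.6%), against 2151 of 4593 (46.8%). A further 7 overlapped one in 1 replicate. Among them, the mam summits at 14017681 and 13990986 each share that replicate peak with the stronger summit in the overlapping peak. The 2 that overlapped none (15.4%, 4.33 to 42.2%, against 26.3% over the list) were the promoter-side peak of neur and the promoter peak of mib1. In the ranked lists of both replicates together, 12 of the 13 had partners in each, against 4540 of 4593 over the whole list. The member without was the mib1 promoter peak.

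Ranked peaks were spread over 9 of the 10 genes. The conservative ranked list held 242 summits at the members, of which 13 (5.37%, 3.17 to 8.97%) passed the threshold, against 5.13% over the whole list. Mam held the most in both forms of the list, 82 ranked and 7 thresholded, and H held none in either. Kuz held 47 ranked summits and fng 27 with none above the threshold, whereas Su(H) held 5 and mib1 held 6 with 1 and 2 above it. Per 100 kb the members held 71.1 ranked summits (62.4 to 80.7), or 59.9 (51.0 to 69.9) without mam, against 71.5 over protein-coding genes and 65.3 over those of at least 20 kb. The number of ranked summits per 10 kb of gene and margin was highest in mam, at 11.2, and 0 in H.

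**Figure D4:**
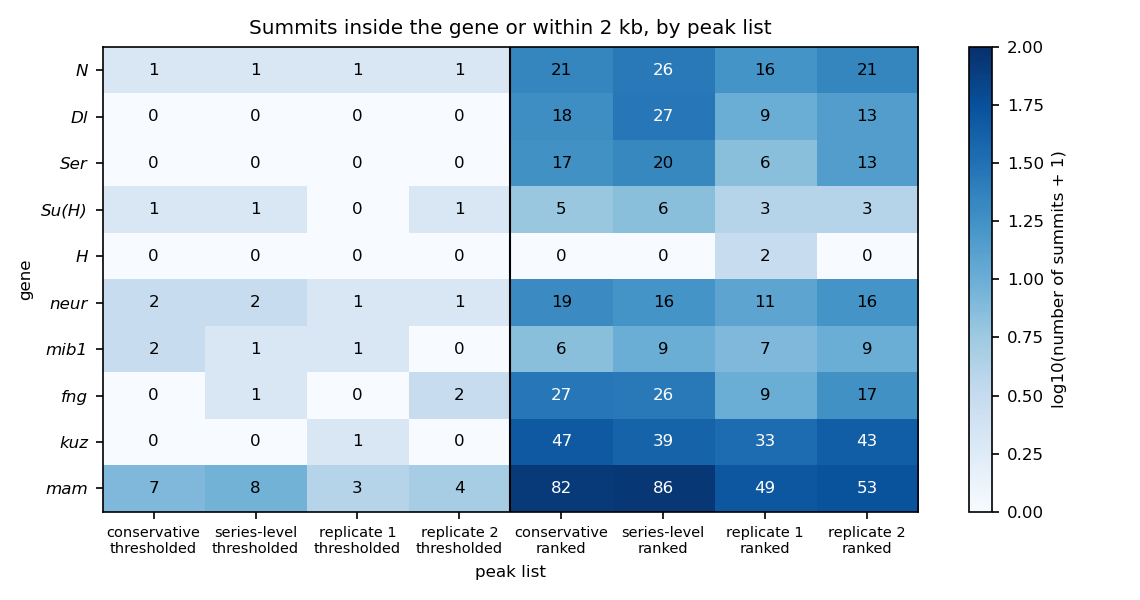
Number of summits inside each gene or within 2 kb of it in the 8 peak lists, thresholded lists on the left of the line and ranked lists on the right. Each cell gives the number and is coloured by log10 of the number plus 1. Dl, Ser and H are at 0 in all 4 thresholded lists, mam has the most in every list, and H has ranked summits in replicate 1 only.

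Short words were searched for on both strands within 50 bp of each summit. The word CGTAT was present at 2 of 13 member summits (15.4%, 4.33 to 42.2%), both in mam, against 1414 of 4593 peaks (30.8%). Within 100 bp it was present at 4 of 13 (30.8%, 12.7 to 57.6%), against 1850 of 4593 (40.3%). CATACGCC, whose reverse complement holds CGTAT, was present at none (0 of 13, up to 22.8%), against 9.01% of the list. GTGGGAA, the only form of the Su(H) recognition sequence searched, was likewise at none of 13, against 0.849% of the list. The GAGA factor word GAGAG was at 1 of 13 (7.69%, 1.37 to 33.3%), the mam summit at 14017482, against 9.43%. A word that is missing says only that these letters are not in the window.

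A longer list of 30 further pathway genes was counted by the same rules, and 14 of them (46.7%) held a conservative summit, against 33.0% of protein-coding genes, with 18 summits in all. Within 500 bp of an own TSS, 6 (20%) did, against 16.7%. All 6 overlapped thresholded peaks of both replicates, whereas none of the 4 core genes with a summit at an own TSS had one there that did. Over the list, 1078 of 1944 conservative peaks within 500 bp of a TSS (55.5%) did. Signal differed as well. Taking the strongest summit at an own TSS of each gene, it was 54.3 to 84.5 at the 4 core genes and 163 to 653 at the 6. Weaker summits are left out of these ranges, at 2.29 for mam and at 8.55, 60.7 and 105 for rumi, numb and gro. The contrast was not tested. The strongest of the 6 was at l(2)gd1, which acts in receptor trafficking, 108 bp upstream of the TSS. Its signal was 653 (rank 52), with 375 in replicate 1 and 283 in replicate 2, and it is shared with Reps. The peak of numb, the Notch inhibitor segregated in asymmetric divisions, lay 204 bp upstream of an inner TSS with a signal of 351 (rank 206). The peak of gro, the Groucho corepressor recruited by Hairless, lay 133 bp upstream of a TSS with a signal of 326 (rank 232).

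AP-2alpha, an endocytic adaptor subunit that acts with Numb, had a peak of signal 208 (rank 558) 166 bp upstream of its TSS, which lay nearer to the TSS of ebi, at 124 bp. Aph-1, a gamma-secretase subunit, had one of 181 (rank 704) 229 bp upstream, shared with Snx21. Rumi, the O-glucosyltransferase of the receptor, had one of 163 (rank 871) 97 bp upstream, shared with CG7029 and Usp12-46. By role, a summit inside or within 2 kb was present at 2 of 4 gamma-secretase genes, 2 of 2 further ADAM protease genes, 2 of 3 glycosyltransferase genes, 2 of 3 genes of asymmetric division, 3 of 4 of receptor turnover, 2 of 5 nuclear cofactor genes, 0 of 2 trafficking genes and 1 of 3 others. These counts are of positions, not of peaks that belong to the genes. Of the 8 genes with a summit but none at an own TSS, 6 had their strongest within 500 bp of the TSS of another gene, such as Nct, with CG7006 at 9 bp, Tace, with Nph at 26 bp, dx, with RpL7A at 35 bp, and O-fut1, with eIF3m at 61 bp. The 4 listed Bearded-family genes, Brd, Tom, BobA and Ocho, whose products inhibit Neuralized, held none. By the same rule 33.0% of all protein-coding genes held a summit, and groups this small set no role apart. The strongest peak assigned to any of the 30, with a signal of 1323 (rank 6), lay downstream of the ADAM gene Kul and 97 bp from the TSS of CG7601. Kul, Nct, Tace, dx and O-fut1 were singled out after their values were seen.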

How the data were processed

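Peak lists on dm6 were the only data used. The 4 lists of the whole series combine both replicates and some unnamed inputs, per the deposited notes on the files, and those of a replicate rest on its own alignments and unnamed inputs. No source used here names the aligner or the peak caller. The deposited signal and the deposited score were used as given, and the score follows the IDR, with 830 as the lowest in every thresholded list. The deposited −log10 of the IDR was read from the ranked lists, the deposited −log10 q-values were not used, and 16 further columns of the series' ranked lists were left out.

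Genes came from Ensembl release 115 (BDGP6.54), without transposable elements. Assignment, tested on simulated data, and intervals used Python 3.11.15, scipy 1.17.1 and numpy 2.4.6. Partners in other lists share at least 1 bp. A TSS is the start of any annotated transcript, and introns are numbered in the longest transcript around the summit. Where peaks lie within 500 bp of several TSS, the genes are not told apart. The 10 genes, the pathway list and the words were chosen with earlier results of these data known. The text names all 10 genes with their conservative peaks (for mam the 4 strongest in full), nearest genes, and listed genes with a summit at their TSS. Alternatives are given at the end. Sequences are shown for 5 of the 13 summits and not reported here for the others. No test was run. Replicates are biological per the labels.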

Additional observations from a re-analysis of the deposited data

How the results depend on the processing

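Of 59 recalculations of 7 results, 17 moved. Of the other 42, 16 were counts within 1.5 times the count given and 26 were shares or densities inside the wide 95% interval of the value given, which still allows large shifts. Among these, summits per 100 kb were 2.06 without replicate 2 and 2.25 without mam, in place of 3.82, and CGTAT within 100 bp was at 30.8% of summits, in place of 15.4%. Leaving out a replicate means using the thresholded list of the other alone. That gave 7 to 9 summits at the members in place of 13, 0 to 2 genes with a summit at an own TSS in place of 4, 14.3 to 22.2% of summits near any TSS in place of 46.2%, and 0 to 11.1% with CGTAT in place of 15.4%. With peaks above the median signal only, the members held 5 summits, 0 of them at an own TSS. Of these, 80.0% overlapped thresholded peaks of both replicates, 20% lay near any TSS and 0% had CGTAT, at 1.47 per 100 kb. Without the 2 kb margin, 3 genes held 8 summits. Within 200 bp, 2 genes held a summit at an own TSS. Without mam, an alternative chosen after seeing the data, 6 summits were left and 0% had CGTAT. The number of genes with a summit was 4 to 6 under every alternative but the missing margin, but the genes changed. Between the thresholded lists of the replicates, only N, neur and mam recurred. Mib1 and kuz held a summit in replicate 1 only, and Su(H) and fng in replicate 2 only. At single genes, fng gained a summit in the series-level list and mib1 lost one. No paired analysis was possible because the series holds 1 group. Read depth is unknown, no control library was analysed, and 10 genes give wide intervals.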
